A study of Homo sapiens with 8 samples.

Results

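The 8 genes described here encode ATP-binding cassette (ABC) transporters that pump drugs or drug conjugates out of cells: ABCB1, ABCC1, ABCC2, ABCC3, ABCC4, ABCC5, ABCC10 and ABCG2. They were chosen by name, and make up 8 of the 35113 genes in the deposited estimates. RNA was sequenced from 4 groups of cultured squamous carcinoma cells with 2 libraries each. The SCC89 group was the HPV- line UPCISCC89 before selection, and SCC411 was a cisplatin-resistant clone of that line, selected in 2.5 and then 5 µM cisplatin. The SCC2 group was the HPV+ line UDSCC2 before selection, and SCC35 was its resistant clone, selected in 5 and then 10 µM cisplatin. Each resistant group stood for a single-cell clone, later kept in medium without the drug, so that a change between a clone and its parental line cannot be told apart from a difference of that clone alone. The lines differed in donor, in HPV status and in the dose of selection, which cannot be told apart either. Whether the paired libraries of each group are independent cultures is not stated, and the spread behind every p-value here may therefore be technical.

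ABC transporters use the energy of ATP to move compounds across membranes, often against a gradient. Members of the ABCC subfamily, also called multidrug resistance proteins, carry glutathione, glucuronide and sulfate conjugates, bile acids, nucleotides and nucleotide analogs, whereas ABCB1 (P-glycoprotein) and ABCG2 (breast cancer resistance protein) carry many hydrophobic drugs in unconjugated form. Cisplatin reacts with glutathione inside cells, and the ABCC proteins, ABCC2 above all, have long been studied as exporters of such conjugates.

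Each library held between 20250246 and 27341284 estimated read pairs. Levels are given as CPM, reads scaled to a common library size after edgeR's TMM correction, and levels of different genes are compared only in TPM, which also account for transcript length. All 10 epithelial and squamous markers listed reached at least 1 CPM in all 8 libraries. Their summed level was 15281 and 15300 CPM in SCC89, 4202 and 5304 CPM in SCC411, 5202 and 5482 CPM in SCC2 and 6336 and 5252 CPM in SCC35. Of 12 markers of fibroblasts, endothelium and leukocytes, 5 or 6 were at 0 in each library, but the fibroblast gene COL3A1 stood at 1358 to 3079 CPM in all 4 HPV+ libraries and at 0 in the 4 HPV- libraries.

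On the TPM scale the 8 genes differed widely in mean level. ABCC10 (mean over the 8 libraries 23.1 TPM, range 14.9 to 36.2) and ABCC5 (22.7 TPM, range 14.2 to 38.3) stood highest. ABCC1 followed at 12.1 TPM (6.60 to 20.8), ABCC3 at 9.02 TPM (4.005 to 12.1) and ABCC4 at 4.59 TPM (3.08 to 6.19). ABCG2 and ABCC2 were far lower, at 0.438 TPM (0.145 to 1.01) and 0.298 TPM (0.0151 to 1.09). TPM divide by the lengths of the transcripts that reads were assigned to, so this order depends on that assignment. The mean effective length behind the TPM was 1568 to 2364 bases for ABCC10 and 3190 to 4008 bases for ABCC5. Their reference transcripts have 5043 and 5790 bases. The order of the upper 4 was not the same in all groups. ABCC3 stood above ABCC1 in every HPV- library (10.1 to 12.1 TPM against 6.60 to 9.90 TPM) and below it in every HPV+ library. That order also depends on the assignment, with mean effective lengths of 1795 to 3020 bases for ABCC3 and 2748 to 6131 bases for ABCC1. ABCC10 stood above ABCC5 in SCC411 (means 33.3 and 14.6 TPM) and below it in SCC2 (20.1 and 25.7 TPM) and SCC35 (23.1 and 35.1 TPM). The ranges of neighbors in the overall order overlapped, except between ABCC4 and ABCG2 and between ABCC2 and ABCB1, which had no read.

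**Figure D1:**
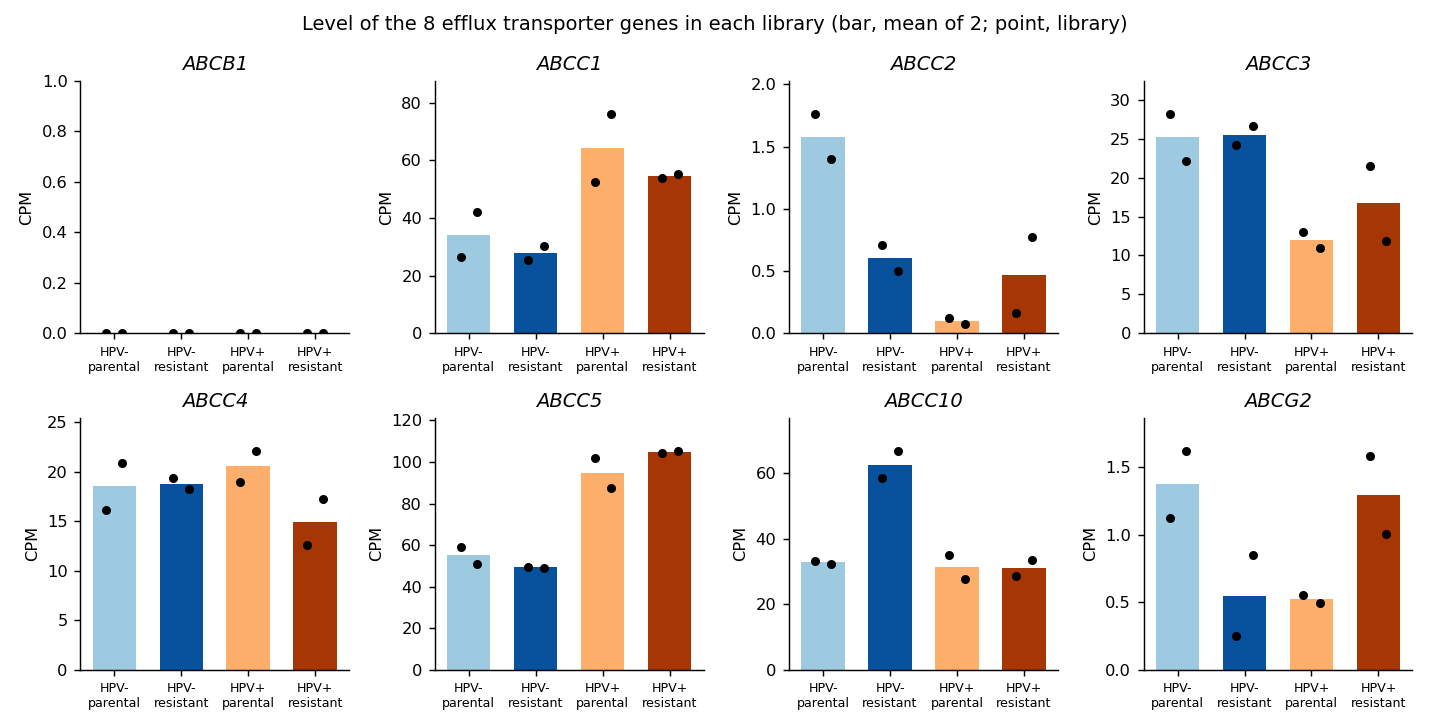
Level of each of the 8 transporter genes in CPM (y axis, linear, a scale of its own in each panel) in the 4 groups (x axis). Bars are means of 2 libraries and points are the libraries. ABCC10 stands at 58.3 and 66.8 CPM in the HPV- resistant libraries and at 27.5 to 34.9 CPM in the other 6, and ABCB1 is at 0 in all 8.

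ABCB1, the P-glycoprotein gene (GRCh38 chr7:87503017-87713323, minus strand), had 0 reads in all 8 libraries. None of its 11 transcripts in the files received a read in either parental line or in either resistant clone. A count of 0 allows up to 3 counts per library, which corresponds to 0.113 to 0.16 CPM, and lower levels could go undetected at this depth. Because the gene passed no filter it was not tested. Its annotated starts were read from RefSeq (GRCh38.p14), and the 250 bases before the start of its MANE transcript (the reference isoform shared by RefSeq and Ensembl) are shown because this is the promoter of the member without reads. Both promoter windows here were searched on both strands for 3 short motifs: the antioxidant response element TGACNNNGC bound by NRF2, the core GCGTG bound by the aryl hydrocarbon receptor, and the E-box CACGTG bound by MYC and related factors. Capitals mark matches.
ABCB1, chr7:87600885-87601134, minus strand: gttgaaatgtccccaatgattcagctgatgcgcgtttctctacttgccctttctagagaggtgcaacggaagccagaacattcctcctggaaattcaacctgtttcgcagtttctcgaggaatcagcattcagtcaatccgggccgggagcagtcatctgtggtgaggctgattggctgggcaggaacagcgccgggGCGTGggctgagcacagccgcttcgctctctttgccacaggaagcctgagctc
The window held 1 match to GCGTG and none to the others. Of 35116 promoter windows of 300 bases in the RefSeq table, 36.5% held GCGTG, 13.3% the antioxidant response element and 7.26% the E-box, so a single GCGTG match is common.

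ABCC10 was the member with the clearest difference between a resistant clone and its parental line, in the HPV- line. ABCC10 (chr6:43427366-43450427, plus strand), also called MRP7, exports natural-product drugs such as taxanes and vinca alkaloids and some conjugates. Its level was 33.2 and 32.3 CPM in SCC89 and 58.3 and 66.8 CPM in SCC411. In the HPV+ line it was 34.9 and 27.5 CPM in SCC2 and 28.6 and 33.5 CPM in SCC35. Both SCC411 libraries lay above all 6 others, and the 2 HPV+ groups overlapped. SCC411 exceeded SCC89 by 0.93 ± 0.16 (SE) on the log2 scale, a fold of 1.91 (95% interval 1.48 to 2.46), with an adjusted p of 0.00294 in edgeR's quasi-likelihood test (Benjamini-Hochberg, over all 15221 genes tested). A call required both an adjusted p below 0.05 and a log2 difference larger than 1 in size, and ABCC10 met the first condition and fell short of the second. In the HPV+ line the difference was -0.01 ± 0.16 with an adjusted p of 0.996 and an interval of -0.37 to 0.35.

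The change in ABCC10 itself differed between the lines. Tested as an interaction, the HPV+ change minus the HPV- change was -0.94 ± 0.23 on the log2 scale (adjusted p = 0.0198, edgeR). Without SCC2 library 1 the adjusted p was 0.127, without SCC35 library 1 it was 0.0847 and without SCC411 library 2 it was 0.0699, and with an offset for transcript length it was 0.116. Between the resistant clones, ABCC10 was lower in SCC35 than in SCC411 by 1.01 on the log2 scale (value -1.01 ± 0.16, adjusted p = 0.000396), a difference of -0.65 with the length offset (adjusted p = 0.0241), whereas the parental lines differed by -0.07 ± 0.16 (adjusted p = 0.742).

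The higher ABCC10 level lay in its reference transcript. The MANE transcript ABCC10-204 (22 exons, 5043 bases) took 71.1% and 68.6% of the gene's reads in SCC89, 76.9% and 78.0% in SCC411, 60.0% and 69.1% in SCC2 and 67.3% and 60.6% in SCC35. In CPM it stood at 23.6 and 22.1 in SCC89, 44.8 and 52.1 in SCC411, 21.0 and 19.0 in SCC2 and 19.2 and 20.3 in SCC35. The SCC411 libraries were again apart from the other 6. With reads of protein-coding transcripts alone the difference between SCC411 and SCC89 was 1.04 (adjusted p = 0.00347), which passed both conditions.

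**Figure D2:**
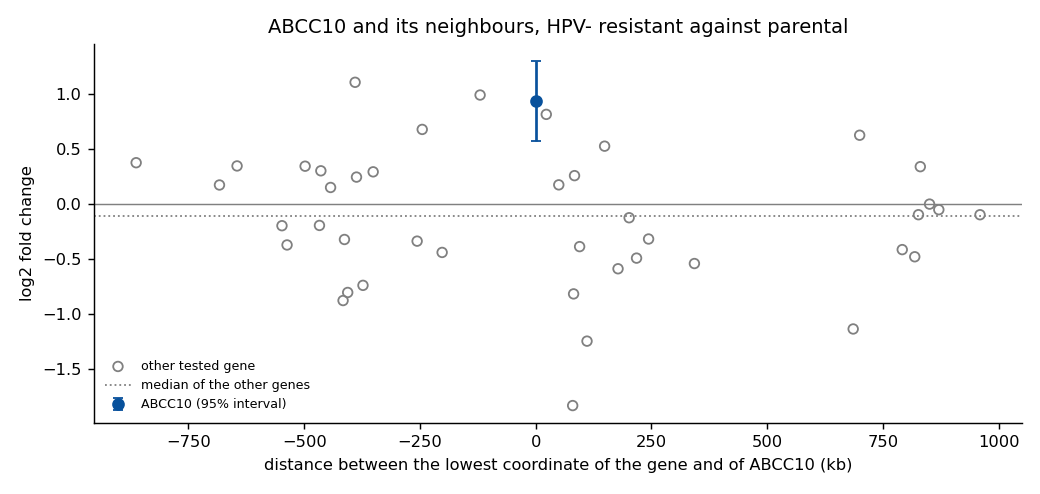
Log2 fold change between HPV- resistant and HPV- parental cells (y axis) of ABCC10 (filled, with its 95% interval) and of the 42 other tested genes within 1 Mb (open) against distance in kilobases (x axis). The dotted line is the median of the others, -0.11, and 2 of the 42 lie at or above ABCC10 at 0.93.

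Genes around ABCC10 did not share one direction. Of 42 tested genes within 1 Mb on chromosome 6, 17 had a log2 fold change above 0 between SCC411 and SCC89, the median was -0.11, and 2 were at or above ABCC10. The nearest tested genes on either side, looked up after values were seen, were ZNF318 at a distance of 120 kb (0.99, adjusted p = 0.00329) and DLK2 at 23 kb (0.82, adjusted p = 0.00463). The 250 bases before the start of the ABCC10 MANE transcript are shown because ABCC10 is the member that moved, with matches to the same motifs in capitals.
ABCC10, chr6:43427291-43427540, plus strand: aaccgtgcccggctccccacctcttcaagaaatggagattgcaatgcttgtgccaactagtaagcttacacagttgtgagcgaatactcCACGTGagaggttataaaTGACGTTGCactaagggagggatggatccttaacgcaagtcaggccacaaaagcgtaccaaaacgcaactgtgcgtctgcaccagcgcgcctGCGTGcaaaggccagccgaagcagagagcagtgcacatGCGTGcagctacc
These bases held 1 E-box, 1 antioxidant response element and 2 GCGTG matches. The matches are letters in a window and no binding was measured. A further RefSeq start of ABCC10, 322 bases downstream, had none of the 3 motifs in its window.

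Among the other 6 members tested, none differed between SCC411 and SCC89 at an adjusted p under 0.05. Of the 7 tested members, edgeR called 0 in the HPV- comparison, where 11.3% of all 15221 genes tested were called. At an adjusted p under 0.05 with no minimum fold, 1 of 7 passed, ABCC10, against 26.8% of all genes. DESeq2 called 0 of the 7. In 4 of the 7 (ABCC2, ABCC5, ABCC10 and ABCG2) the libraries of the 2 groups did not overlap, a pattern found in 61.2% of all genes tested. The median log2 fold change of the 7 was -0.16, beside 0.04 over all genes tested.

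In the HPV+ comparison, SCC35 against SCC2, 0 of the 7 members were called, beside 8.0% of all genes, and DESeq2 also called 0. With no minimum fold the count was 0 as well, beside 18.1%. The libraries did not overlap for ABCC2, ABCC4, ABCC5 and ABCG2, 4 of 7 beside 67.8% of all genes. The median was 0.15, beside 0.00 over all genes. Of 5 fibroblast genes, 2 were called lower in this comparison. LUM fell from 241 and 290 CPM in SCC2 to 91.0 and 65.8 CPM in SCC35, and DCN from 99.4 and 119 CPM to 43.6 and 20.03 CPM. COL3A1 overlapped (2718 and 2974 CPM against 3079 and 1358 CPM), as did COL1A1, at 5.15 to 6.70 CPM in the 4 libraries, and COL1A2, at 0 to 1.27 CPM. Their part in the values of the HPV+ line was not tested. In bulk RNA, fewer cells of a type and less RNA per cell cannot be told apart. For the interaction, 0 of the 7 members were called by edgeR and by DESeq2, beside 11.7% of all genes. With no minimum fold 1 passed, ABCC10, beside 16.7%.

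**Figure D3:**
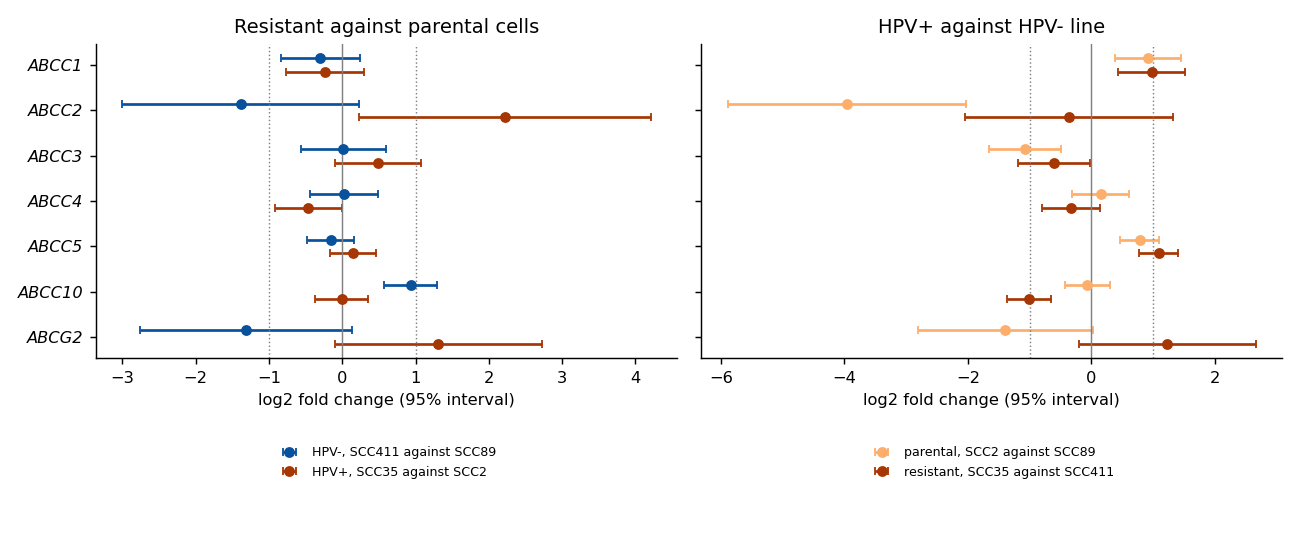
Log2 fold change (x axis) with its 95% interval for the 7 tested members (y axis), between resistant and parental cells in each line (left) and between the HPV+ and HPV- lines (right). Dotted lines mark a log2 fold change of 1 in either direction. The interval of ABCC10 lies above 0 in the HPV- line (0.57 to 1.30) and spans 0 in the HPV+ line (-0.37 to 0.35), and the intervals of ABCC2 and ABCG2 are the widest.

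ABCC2 and ABCG2 were the tested members with the fewest reads. In CPM both lay lower in the HPV- clone and higher in the HPV+ clone than in the parental cells, in every library. However, no comparison of a clone with its parental line passed the test. ABCC2 (MRP2, chr10:99782640-99852594) exports conjugates across the apical membrane of polarized cells. It had 33 and 31 reads in SCC89, 14 and 10 in SCC411, 3 and 2 in SCC2, and 4 and 20 in SCC35, or 1.76 and 1.40, 0.705 and 0.499, 0.118 and 0.0755, and 0.159 and 0.775 CPM. SCC411 differed from SCC89 by -1.38 ± 0.73 on the log2 scale (adjusted p = 0.186). SCC35 differed from SCC2 by 2.22 ± 0.90 (adjusted p = 0.114). Over the summed reads, 24 in SCC35 and 5 in SCC2, the ratio of CPM was 4.88 with an exact 95% interval of 1.83 to 16.4 that covers counting error only. A single library set this value: without SCC35 library 1 the log2 difference was 2.93 (adjusted p = 0.0482), and without SCC35 library 2 it was 0.68 (adjusted p = 0.711). The interaction was 3.60 ± 1.16 (adjusted p = 0.0585).

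ABCG2 (chr4:88090150-88231628), a transporter of topoisomerase inhibitors, urate and porphyrins, had 21 and 36 reads in SCC89, 5 and 17 in SCC411, 14 and 13 in SCC2 and 40 and 26 in SCC35. Its level was 1.12 and 1.62 CPM in SCC89, 0.252 and 0.848 CPM in SCC411, 0.55 and 0.491 CPM in SCC2 and 1.59 and 1.01 CPM in SCC35. In CPM the groups of each line did not overlap, and the spread within SCC411 was wide. In TPM they overlapped in both lines, at 0.426 and 1.01 in SCC89 and 0.331 and 0.443 in SCC411. The HPV+ values were 0.145 and 0.369 TPM in SCC2 and 0.472 and 0.305 TPM in SCC35. The log2 difference was -1.31 ± 0.65 in the HPV- line (adjusted p = 0.161), 1.31 ± 0.64 in the HPV+ line (adjusted p = 0.181), and 2.62 ± 0.91 for the interaction (adjusted p = 0.0759). Without SCC411 library 2 the interaction was 3.74 with an adjusted p of 0.0423. ABCC2 in SCC2, at 0.118 and 0.0755 CPM, lay below the cutoff of the filter on low counts, 0.417 CPM, and passed through other groups. ABCG2 reached that cutoff in both SCC2 libraries. With so few reads, the separation of either gene is not read as a result about the members.

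ABCC1 (MRP1, chr16:15949138-16143257, plus strand) is the exporter of glutathione conjugates and leukotrienes for which the subfamily was named. On read counts it separated the lines rather than the clones. Its level was 26.3 and 42.2 CPM in SCC89, 25.3 and 30.3 CPM in SCC411, 52.5 and 76.2 CPM in SCC2 and 54.0 and 55.3 CPM in SCC35. Every HPV+ library lay above every HPV- library in CPM. In TPM the lines overlapped, with SCC2 library 1 at 9.64 and SCC411 library 1 at 9.90. SCC411 differed from SCC89 by -0.30 ± 0.24 (adjusted p = 0.385, interval -0.84 to 0.24) and SCC35 from SCC2 by -0.24 ± 0.24 (adjusted p = 0.52, interval -0.76 to 0.29). SCC2 exceeded SCC89 by 0.91 ± 0.24 (adjusted p = 0.00837) and SCC35 exceeded SCC411 by 0.98 ± 0.24 (adjusted p = 0.00596). The latter was 0.85 (adjusted p = 0.0529) without SCC411 library 1 and 0.73 (adjusted p = 0.443) on protein-coding transcripts alone. The difference of the parental lines was 1.14 (adjusted p = 0.00494) without SCC2 library 1 and 1.25 (adjusted p = 0.00107) without SCC89 library 2, both large enough to be called. It was 0.62 (adjusted p = 0.0833) without SCC2 library 2, and 0.39 (adjusted p = 0.126) with an offset for transcript length. Of 21 tested genes within 1 Mb, 16 had a log2 difference above 0 between SCC2 and SCC89, with a median of 0.88. Of the 21, 5 were called higher and 2 lower in SCC2.

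The gene total of ABCC1 hid a different make-up of transcripts in each library, as Salmon assigned the reads. The MANE transcript ABCC1-202 (31 exons, 6504 bases) took 0 and 50.9% of the gene's reads in SCC89, 0 and 28.1% in SCC411, 45.8% and 67.2% in SCC2, and was listed at 0 in both SCC35 libraries. ABCC1-208 (9 exons, 3077 bases, with 2961 of them shared with the 3′ part of the MANE transcript and no coding sequence defined) took 62.4% and 16.8% in SCC89, 37.9% and 43.0% in SCC411, 7.06% and 0 in SCC2, and 33.8% and 28.55% in SCC35. In the HPV+ line the parental and resistant libraries did not overlap for either transcript. In the HPV- line the replicates stood far apart for ABCC1-202 in both groups and for ABCC1-208 in SCC89. ABCC1-211 (12 exons, 1770 bases, of the 5′ part) took 18.3% and 14.4% in SCC35, 16.1% in SCC411 library 1 and 0 in the other 5 libraries.

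**Figure D4:**
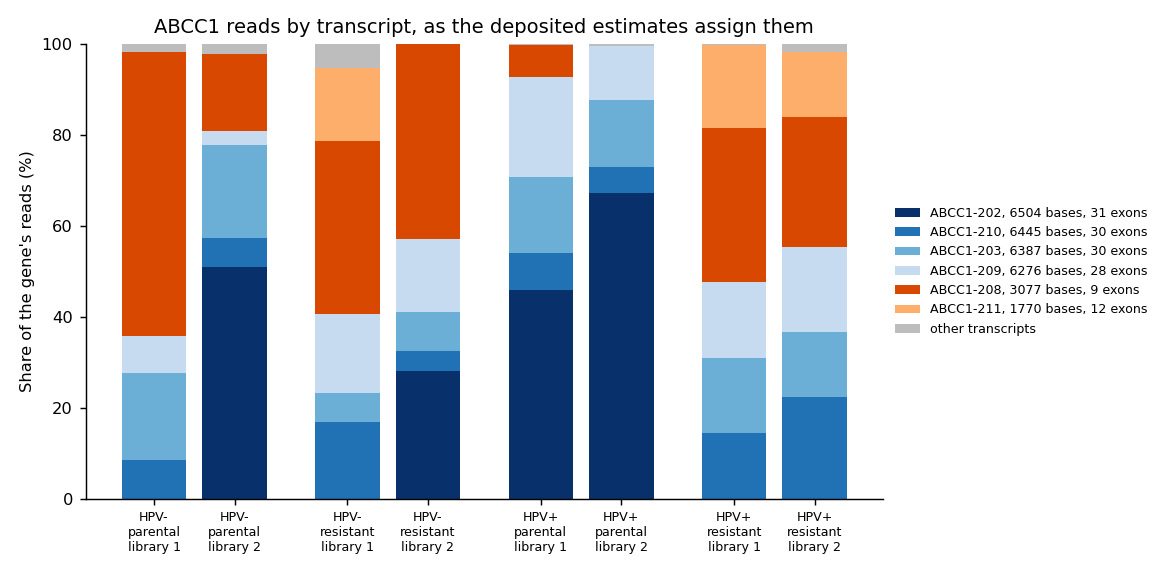
Share of the ABCC1 reads in each library (x axis) assigned to each transcript (y axis, percent). Blue shades are the 4 transcripts of over 6000 bases shown, orange shades ABCC1-208 and ABCC1-211, and gray the rest. The transcript ABCC1-202 holds 45.8% and 67.2% in the HPV+ parental libraries and 0 in the HPV+ resistant libraries.

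Summed over the 5 ABCC1 transcripts of at least 6000 bases, a length chosen after values were seen, the share was 35.9% and 80.9% in SCC89, 40.6% and 57.0% in SCC411, 92.7% and 99.5% in SCC2, and 47.6% and 55.3% in SCC35. Both SCC2 libraries were above all others, and the SCC89 libraries stood further apart than the groups of the HPV- line. The mean effective length of ABCC1 fell with it, from 5667 and 6131 bases in SCC2 to 3048 and 3397 bases in SCC35, a log2 change of -0.87 beside a median of 0.00 over all genes tested. The direction of the ABCC1 change in the HPV+ line therefore depended on the unit: -0.24 on read counts, 0.71 (adjusted p = 0.0473) with an offset for transcript length, and -1.68 (adjusted p = 0.178) on protein-coding transcripts alone. TPM, which divide by length, were 9.64 and 13.8 in SCC2 and 20.8 and 19.4 in SCC35. An exact 0 for a transcript can be a failed estimate where isoforms share nearly all bases, and 10 of the 11 annotated ABCC1 transcripts were quantified here.

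Stretches that separate these isoforms are shown because reads over them would tell the isoforms apart (plus strand, from the GENCODE 44 transcript sequences). The first is the opening exon of ABCC1-208, 116 bases that lie in an intron of the MANE transcript. The second is exon 17 of the MANE transcript, 177 coding bases left out of ABCC1-203 and ABCC1-209.
ABCC1-208 opening exon, chr16:16120577-16120692: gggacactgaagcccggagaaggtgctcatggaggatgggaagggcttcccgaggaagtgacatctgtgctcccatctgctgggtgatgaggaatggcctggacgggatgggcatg
ABCC1-202 exon 17, chr16:16083366-16083542: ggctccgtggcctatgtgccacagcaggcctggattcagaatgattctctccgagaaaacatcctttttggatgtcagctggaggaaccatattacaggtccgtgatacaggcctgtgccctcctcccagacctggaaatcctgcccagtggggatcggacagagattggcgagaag
The isoforms without exon 17, ABCC1-203 and ABCC1-209, together with ABCC1-202 and ABCC1-210 held most reads in SCC2. Salmon assigned 6.22% to 20.5% of the gene's reads to ABCC1-203 and 3.13% to 21.9% to ABCC1-209, with some in every library. ABCC1-203 shares 6327 of its 6387 bases with the MANE transcript, and ABCC1-209 shares 6033 of its 6276. Reads of these isoforms and of the MANE transcript may therefore be assigned to one another. Whether either isoform was present in every library was not tested.

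ABCC5 also separated the lines. ABCC5 (MRP5, chr3:183919934-184017939), an exporter of cyclic nucleotides and nucleotide analogs, stood at 59.1 and 51.0 CPM in SCC89, 49.7 and 48.9 CPM in SCC411, 101.7 and 87.7 CPM in SCC2 and 104.1 and 105.5 CPM in SCC35. All HPV+ libraries were above all HPV- libraries. Within each line the difference between clone and parental cells did not pass the test, at -0.16 ± 0.14 in the HPV- line (adjusted p = 0.44, interval -0.48 to 0.16) and at 0.15 ± 0.14 in the HPV+ line (adjusted p = 0.502, interval -0.17 to 0.46). Between the lines the log2 difference was 0.78 ± 0.14 for parental cells (adjusted p = 0.000828) and 1.09 ± 0.14 for resistant cells (adjusted p = 9.37e-05). Of 29 tested genes within 1 Mb, 15 had a log2 difference above 0 between SCC2 and SCC89, with a median of 0.05. Of the 29, 7 were called higher and 3 lower in SCC2.

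The make-up of ABCC5 transcripts also varied between libraries, as Salmon assigned the reads. The MANE transcript ABCC5-202 (30 exons) took 47.3% and 57.2% of reads in SCC89, 47.5% and 55.2% in SCC411, 47.7% and 51.2% in SCC2 and 41.9% and 31.2% in SCC35. ABCC5-205, a transcript of 5 exons and 4697 bases of which 680 are shared with the MANE transcript, took 29.7% and 21.4% in SCC89, 39.4% and 30.03% in SCC411, 32.99% and 33.99% in SCC2 and 43.2% and 43.1% in SCC35. The share of ABCC5-205 was higher in both resistant libraries than in both parental libraries of either line, as a description without a test. The MANE transcript alone stood at 27.98 and 29.2 CPM in SCC89, 23.6 and 26.98 CPM in SCC411, 48.5 and 44.9 CPM in SCC2 and 43.7 and 32.9 CPM in SCC35.

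ABCC3 (MRP3, chr17:50634777-50692253), which exports glucuronides and bile acids across the basolateral membrane, ran the other way between the lines. Its level was 28.3 and 22.2 CPM in SCC89, 24.3 and 26.7 CPM in SCC411, 13.0 and 10.9 CPM in SCC2 and 21.6 and 11.9 CPM in SCC35. The HPV- libraries all lay above the HPV+ libraries, with SCC35 library 1 close to them. SCC2 was lower than SCC89, with a log2 difference of -1.08 ± 0.26 (adjusted p = 0.00542), and without SCC2 library 2 it was -0.95 (adjusted p = 0.0464) and without SCC89 library 1 it was -0.91 (adjusted p = 0.0319), both short of the fold condition. Between the clones the difference was -0.61 ± 0.26 (adjusted p = 0.0697), and without SCC35 library 1 it was -1.10 (adjusted p = 0.00508). SCC411 differed from SCC89 by 0.01 ± 0.26 (interval -0.56 to 0.59) and SCC35 from SCC2 by 0.48 ± 0.26 (adjusted p = 0.231, interval -0.10 to 1.07).

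ABCC4 (MRP4, chr13:95019835-95301475), an exporter of cyclic nucleotides and prostaglandins, had the most even level. It stood at 16.1 and 20.9 CPM in SCC89, 19.4 and 18.2 CPM in SCC411, 19.0 and 22.1 CPM in SCC2 and 12.6 and 17.2 CPM in SCC35. Both SCC35 libraries lay below both SCC2 libraries, with a log2 difference of -0.46 ± 0.21 (adjusted p = 0.151, with an interval from -0.92 to just under 0). The HPV- difference was 0.02 ± 0.21 (adjusted p = 0.971) and the parental lines differed by 0.15 ± 0.21 (adjusted p = 0.563). The order of the 4 group means had no neighbors that differed at an adjusted p under 0.05.

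Between the parental lines 2 of 7 were called, ABCC2 and ABCC3, both lower in SCC2, beside 37.0% of all genes tested, and 4 of 7 passed with no minimum fold, beside 58.0%. ABCC2 passed the filter through the groups where it was high, so its call is given for completeness and read as no result. Over the summed reads, 64 in SCC89 and 5 in SCC2, its level in SCC89 was 16.3 times that in SCC2 (exact 95% interval 6.61 to 51.7, counting error only). Between the clones 2 of 7 were called, ABCC5 higher and ABCC10 lower in SCC35, beside 36.0% of all genes, and 3 of 7 passed with no minimum fold, beside 57.9%. These shares were near or below those over all genes. Levels did not overlap for 5 of 7 members between the parental lines, beside 79.5% of all genes, and for 6 of 7 between the clones, beside 80.9%. COL3A1, LUM and DCN were high in the HPV+ line and at or near 0 in the HPV- line, whereas COL1A1 stood at 3.65 to 8.36 CPM in all 8 libraries, and their part in these differences was not tested. ABCC2 in SCC35 and SCC411, by contrast with the parental lines, overlapped (-0.36 ± 0.76, adjusted p = 0.706), and ABCG2 differed by -1.39 ± 0.64 between the parental lines (adjusted p = 0.0859).

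Over the 8 libraries, the 2 protein-coding genes whose log2 CPM ran most like each member were found among 14199 others by Pearson's r, as a description over libraries that share lines. For ABCC10 they were C2orf81 (r = 0.983) and TNFSF15 (0.983), for ABCC1 YY1AP1 (0.991) and NUP160 (0.974), and for ABCC5 LZTS3 (0.994) and CDH24 (0.993). For ABCC3 they were ACP7 (0.980) and GBX2 (0.979), and for ABCC4 ENSG00000288534 (0.912) and DLG5 (0.905). The 2 low members were closest to HNRNPA1L2 (0.979) and FCRLB (0.968) for ABCC2 and to HAUS2 (0.957) and ASDURF (0.945) for ABCG2.

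**Figure D5:**
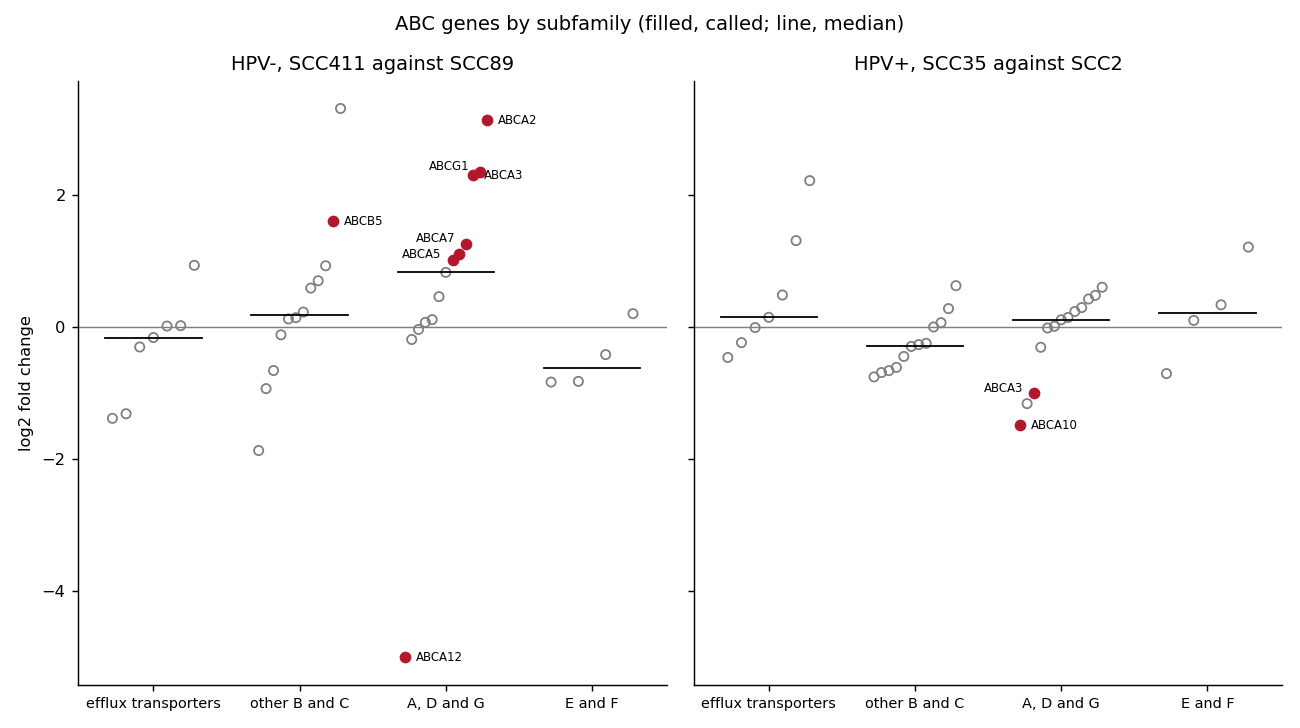
Log2 fold change between resistant and parental cells (y axis) of the tested ABC genes in 4 groups of subfamilies (x axis), in the HPV- line (left) and the HPV+ line (right). Filled points were called and lines are medians. In the HPV- line 7 genes of subfamilies A, D and G were called, beside none of the efflux transporters.

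Outside the drug efflux genes, most calls among ABC genes fell in subfamilies A, D and G and in the HPV- line. Subfamilies A, D and G carry lipids, sterols and very long chain acyl-CoA, and 13 of the 20 listed genes were tested. In the HPV- clone 6 of the 13 were called higher, beside 6.06% of all genes, and 1 lower, beside 5.22%, with a median log2 fold change of 0.83 beside 0.04 over all genes. ABCA2, a lipid transporter of lysosomes, rose from 5.93 and 5.27 CPM in SCC89 to 56.4 and 41.5 CPM in SCC411 (3.13 ± 0.21, adjusted p = 1.82e-05). ABCA3, known for loading surfactant lipids into lamellar bodies, rose from 2.30 and 2.52 to 11.2 and 12.5 CPM (2.30 ± 0.28, adjusted p = 0.000441). ABCA5, ABCA7 and the sterol exporter ABCG1 were also higher, at 1.01 to 2.35. ABCA12, the keratinocyte transporter of glucosylceramides for the skin barrier, fell from 5.39 and 6.18 CPM to 0.151 and 0.199 CPM, and its 238 reads in SCC89 against 7 in SCC411 gave a ratio of 33.2 (exact 95% interval 15.9 to 83.4, counting error only). In the HPV+ clone 2 of the 13 were called, ABCA3 lower (-1.01 ± 0.26, adjusted p = 0.0251) and ABCA10 lower (-1.49 ± 0.45, adjusted p = 0.0437), where 4.6% of all genes were called lower and 3.4% higher. The median there was 0.11. Summed epithelial markers were lower in SCC411 as well, as given above, with KRT5 (5807 and 7000.47 CPM in SCC89, 2204 and 3109 CPM in SCC411) and KRT14 (6547 and 5121 CPM, 221 and 282 CPM) making up most of the sum. Of the 10 markers 5 were called lower and 1 higher, CDH1, from 87.8 and 108 CPM to 174 and 221 CPM, and the part of these markers in the changes was not tested.

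Of 12 tested other genes of subfamilies B and C, 1 was called in the HPV- line, beside 11.3% of all genes: ABCB5, a relative of P-glycoprotein, which rose from 2.94 and 3.25 CPM to 11.8 and 6.98 CPM (1.60 ± 0.37, adjusted p = 0.0104). None was called in the HPV+ line by edgeR, beside 8.0% of all genes. With no minimum fold 2 passed there, beside 18.1%. Medians were 0.18 and -0.28. ABCB6, a mitochondrial and lysosomal porphyrin transporter, differed in its change between the lines (-1.62 ± 0.34, adjusted p = 0.00996). Between the parental lines 4 of the 12 were called, all lower in SCC2, beside 19.3% of all genes, and among them TAP2, of the peptide loader of MHC class I, was listed at 0 in all 4 HPV+ libraries, with 22.2% of its annotated transcripts in the files. The 4 genes of subfamilies E and F, which lack a membrane domain and act in translation, had none called in either line. The shares of all genes were 11.3% (HPV-) and 8.0% (HPV+), and the medians of the 4 genes were -0.62 and 0.22.

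Outside the ABC family, the RNA of 2 genes listed with multidrug and platinum efflux changed in different ways in the lines. The tests of those differences are in the closing section. Of 7 tested genes, 1 was called in the HPV- line, beside 11.3% of all genes, and 3 in the HPV+ line, beside 8.0%. SLC47A2, the proton antiporter MATE2-K that exports organic cations, rose from 7.96 and 5.91 CPM in SCC89 to 28.6 and 26.5 CPM in SCC411 (1.99 ± 0.19, adjusted p = 0.000173) and fell from 129 and 119 CPM in SCC2 to 65.8 and 49.9 CPM in SCC35 (-1.10 ± 0.18, adjusted p = 0.00274). MVP, the major vault protein, stood at 103 and 101 CPM in SCC89, 156 and 202 CPM in SCC411, 38.2 and 38.4 CPM in SCC2 and 21.3 and 14.3 CPM in SCC35, and fell in the HPV+ clone (-1.11 ± 0.20, adjusted p = 0.00494). ATP7B, a copper pump that can also export platinum, rose in the HPV+ clone from 3.14 and 2.87 CPM to 5.83 and 7.87 CPM (1.19 ± 0.30, adjusted p = 0.0211). The list medians were 0.68 in the HPV- and 0.11 in the HPV+ line.

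Among regulators of the pumps, 17 transcription factors known to act on efflux genes were tested. Of these, 2 (beside 11.3% of all genes) were called in the HPV- line and none (beside 8.0%) in the HPV+ line. With no minimum fold 3 and 4 passed, beside 26.8% and 18.1%. EPAS1, the hypoxia factor HIF-2α, rose from 44.6 and 68.0 CPM to 121 and 132 CPM in SCC411 (1.17 ± 0.19, adjusted p = 0.00187), and YBX1, a Y-box protein studied as a regulator of ABCB1, fell from 1753 and 1690.0 CPM to 796 and 838 CPM (-1.08 ± 0.15, adjusted p = 0.000758). NFE2L2, which encodes NRF2, differed by 0.11 ± 0.19 in the HPV- line (adjusted p = 0.724) and by 0.75 ± 0.19 in the HPV+ line (adjusted p = 0.0227), short of the fold condition, with 18.5% of its annotated transcripts in the files. NR1I2, the xenobiotic receptor PXR, had 0 reads in all 8 libraries. Medians were 0.18 and 0.01. Of 8 tested membrane anchors and kinases of the transporters none was called in either line by edgeR, beside 11.3% and 8.0% of all genes. With no minimum fold 3 and 2 passed, beside 26.8% and 18.1%, and the medians were -0.11 and -0.14.

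Glutathione genes, which supply the conjugates that ABCC proteins export, had 3 of 20 tested called in each line, where the shares of all genes were 11.3% (HPV-) and 8.0% (HPV+). In the HPV- clone GGT1, which cleaves extracellular glutathione (1.81 ± 0.49, adjusted p = 0.0211), and GSTM4, a glutathione transferase (1.17 ± 0.32, adjusted p = 0.0255), were higher, and SLC7A11, the cystine importer, was lower (-1.34 ± 0.17, adjusted p = 0.00057). In the HPV+ clone CHAC1, which degrades glutathione, was higher (1.14 ± 0.28, adjusted p = 0.0192), and the transferases GSTO1 (-1.17 ± 0.16, adjusted p = 0.0014) and GSTZ1 (-1.21 ± 0.21, adjusted p = 0.00397) were lower. The medians, -0.12 and 0.09, were near the 0.04 and 0.00 of all genes.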

How the data were processed

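The authors sequenced polyA RNA from cultured cells and ran Salmon against GRCh38. Neither its version nor the annotation release is given in the sources used here. They deposited estimated counts (expected read pairs per transcript, not scaled) and TPM for each library, as Salmon gave them, with effective lengths. Here 172550 of 187432 transcripts (92.1%) were matched to GENCODE 44 by ID without version, and estimated counts were summed per gene and rounded to whole numbers. Unmatched transcripts held 4.33% to 5.13% of the counts and were left out. TPM and effective lengths were used as deposited, per transcript and summed or averaged per gene. Because Salmon shares reads among transcripts by a model, the values of single transcripts are less certain than gene totals, and 3′ or 5′ coverage can move them. Strand settings are not given, so overlapping genes cannot be told apart.

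All 8 libraries entered a single fit in edgeR 4.0.16 (R 4.3.3, limma 3.58.1) (a coefficient for each of the 4 groups, TMM normalization, default filtering of low counts, robust quasi-likelihood test), which left 15221 genes and 4 residual degrees of freedom. The Benjamini-Hochberg adjustment covered every tested gene. Log2 CPM for likeness of patterns used a prior count of 2. The alternatives were 11 settings on all libraries, DESeq2 1.42.0 among them, and leaving out each of the 8 libraries. The fits were tested on simulated data before use. A simulated fold of 2, the size of the call threshold, was called for 56% of 50 changed genes in the HPV- comparison and 42% in the HPV+ comparison. For a fold of 3 the shares were 96% and 86%. Figures were drawn with matplotlib 3.10.9. Intervals and floors from counts cover counting error only.

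The 8 members, the 9 gene lists and the tests were chosen with earlier results of these data known. Named genes were the 8 members, from each list up to 3 genes a direction with the smallest p among those called in a comparison, and, for each tested member, the 2 protein-coding genes with the highest Pearson r of log2 CPM. Y-linked genes and genes of X inactivation are never named. ABCA5, COL3A1, NFE2L2, NR1I2, the nearest neighbors of ABCC10 and the transcripts were named after their values were seen. ABCC13 matched more than 1 gene and PDZD3 none, and neither was used. A further called gene of the lists is counted but not reported here. Promoters came from RefSeq (GRCh38.p14), in which 6 of the 8 members had an entry. Exons and transcript sequences came from GENCODE 44 on GRCh38.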

Additional observations from a re-analysis of the deposited data

Results flagged for a closer look

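For ABCC10 and 14 of 81 tested genes on the 7 lists other than cell type markers, the change between resistant and parental cells differed between the HPV+ and HPV- lines, by edgeR's interaction test with adjustment over all 15221 genes tested, of which 11.7% were called. With no minimum fold 21 of the 81 passed, beside 16.7% of all genes. Of the 10 epithelial markers 6 were also called. Values are the HPV+ change minus the HPV- change on the log2 scale. Among the drug efflux transporters ABCC10 had -0.94 (adjusted p = 0.0198), from 0.93 in the HPV- line and -0.01 in the HPV+ line. Among the other genes of subfamilies B and C, ABCB5 had -1.85 (adjusted p = 0.0386) and ABCB6 -1.62 (adjusted p = 0.00996). ABCB6 was at 0.93 in the HPV- and -0.69 in the HPV+ line.

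Among lipid transporters, ABCA2 had -3.02 (adjusted p = 0.000115), ABCA3 -3.30 (adjusted p = 0.000434) and ABCA7 -1.02 (adjusted p = 0.026). ABCA3 passed the test in both lines, higher in the HPV- clone (2.30) and lower in the HPV+ clone (-1.01). ABCA12 had the opposite sign at 5.43 (adjusted p = 9.11e-05), from -5.00 in the HPV- line, where 7 reads remained in the 2 resistant libraries, and 0.42 in the HPV+ line. ABCE1, a ribosome recycling factor without a membrane domain, had 1.16 (adjusted p = 0.00974).

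Outside the ABC family, SLC47A2 had -3.09 (adjusted p = 8.13e-05) and MVP -1.92 (adjusted p = 0.0015). Both changed in opposite directions in the lines, with SLC47A2 at 1.99 and -1.10 and MVP at 0.81 (adjusted p = 0.0117) and -1.11.

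Among regulators, EPAS1 had -1.76 (adjusted p = 0.00288) and the nuclear receptor RXRA, the common partner of xenobiotic receptors, had -1.08 (adjusted p = 0.00893), from 0.44 and -0.64 in the HPV- and HPV+ lines. Among glutathione genes, SLC7A11 had 1.77 (adjusted p = 0.00105), CHAC1 had 1.46 (adjusted p = 0.0492) and GSTZ1 had -1.08 (adjusted p = 0.0289). ABCC10 was included for its adjusted p alone, and the others also passed a log2 difference of 1 in size.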

How the results depend on the processing

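Of the 7 tested members, the number called was 0 in the HPV- comparison and 1 with no minimum fold, on protein-coding transcripts alone and with upper-quartile factors, each time ABCC10. For the interaction it was 0, and 1 with no minimum fold, with no filter on low counts and on protein-coding transcripts alone. Between the parental lines it was 2, and 4 with no minimum fold and 1 with a filter of 5 CPM in 2 libraries and with upper-quartile factors. Between the clones it was 2, and 1 with DESeq2 on 8 libraries, with RLE factors and with the filter of 5 CPM. These settings moved the fold of ABCC10 or ABCC3 across a log2 change of 1, removed ABCC2 by the filter, or, with no filter, brought the adjusted p of ABCC2 under 0.05. Leaving out each library in turn gave 0 to 1 calls in the HPV- comparison (1 without SCC411 library 1), 0 to 1 in the HPV+ comparison (1, ABCC2, without SCC35 library 1), 0 to 1 for the interaction (1 without either SCC35 or either SCC411 library or SCC2 library 2), 1 to 3 between the parental lines (1 without SCC2 library 2 or SCC89 library 1) and 1 to 3 between the clones (1 without SCC2 library 1 or SCC89 library 2). A group left with 1 library was assumed to vary like the others. ABCC10 in the HPV- line kept an adjusted p under 0.05 under all alternatives, at log2 values of 0.82 to 1.04.

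Replicate numbers do not mark a shared culture or day in the sources used here, and deviations of same-numbered libraries correlated at -0.07 to 0.14. With the replicate block, 0 members were called in the HPV- comparison, 0 in the HPV+ comparison, 0 for the interaction, 2 between the parental lines and 2 between the clones, and the calls over all genes went from 1718 to 1616 in the HPV- and from 1218 to 1123 in the HPV+ comparison.

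Small differences changed sign. With an offset for transcript length ABCC1 was 0.058 in the HPV- line and 0.71 in the HPV+ line, ABCC3 -0.051 in the HPV- line, ABCC10 0.12 in the HPV+ line and 0.14 between the parental lines, and ABCG2 -0.14 between the clones. On protein-coding transcripts alone the interaction was -0.87 for ABCC1 and -0.23 for ABCC3. With fits of 4 libraries, DESeq2 and edgeR gave -0.0344 and -0.022 for ABCC3 and -0.0241 and -0.0096 for ABCC4 in the HPV- line. ABCC10 in the HPV+ line was 0.016 with DESeq2 on 8 libraries, 0.016 with RLE factors, 0.014 with the filter of 5 CPM and 0.038 with upper-quartile factors, which gave 0.010 between the parental lines. Leaving out libraries gave ABCC1 -0.61 to 0.0066 in the HPV- line, -0.50 to 0.052 in the HPV+ line and -0.25 to 0.38 for the interaction. It gave ABCC2 -1.88 to 0.36 between the clones, and ABCC3 -0.22 to 0.19 in the HPV- line, -0.013 to 0.85 in the HPV+ line and -0.021 to 0.84 for the interaction. It gave ABCC4 -0.16 to 0.15 in the HPV- line and -0.038 to 0.31 between the parental lines, and ABCC10 -0.18 to 0.16 in the HPV+ line and -0.27 to 0.095 between the parental lines. No scaling alternative moved the median of all genes by over 0.1. The 2 libraries a group and the few reads of ABCC2 and ABCG2 limit what could be detected.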
